A study of Mus musculus with 41 samples.

Results

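The 10 genes described here, Vim, Fn1, Pdgfra, Pdgfrb, Fap, S100a4, Dcn, Lum, Postn and Thy1, are widely used markers of fibroblasts and other mesenchymal cells. They were found on the array by exact gene name, and each was read from its probe of highest mean signal. All 10 were present and passed the filter on dim signals, among 20913 genes tested in 41 tumors. The tumors arose from fragments of Trp53-null BALB/c mammary duct transplanted into cleared mammary fat pads of wild-type female BALB/c mice, so every tumor carried the deletion and every host was wild type. The host supplied the fat pad, and RNA was taken from the whole tumor. Whether stromal cells within a tumor came from the host or from the donor fragment was not tested. Hosts were fed a low-fat diet (LFD) or a high-fat diet (HFD) throughout, or were switched at the end of puberty from HFD to LFD (HFD-LFD) or from LFD to HFD (LFD-HFD). The 29 tumors labelled p53 variable, called epithelial tumors in the study, comprised 8 LFD, 8 HFD, 7 HFD-LFD and 6 LFD-HFD tumors, of which 14 had occurred early and 15 late. The 12 spindle cell carcinomas comprised 3 tumors from each regimen, 3 early and 9 late. Trp53, the deleted gene, gave a signal well above background on all 41 arrays, its log2 ratio lying between −2.25 and 3.74 among epithelial and between 0.084 and 1.95 among spindle cell tumors. Where its probe lies relative to the disrupted part of the gene was not given in the sources used here, so this reading does not check the labels.

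Fibroblasts build and remodel the extracellular matrix and expand in the stroma of most carcinomas. Vimentin (Vim) is the intermediate filament of mesenchymal cells, and carcinoma cells that have undergone epithelial-mesenchymal transition also make it. PDGF receptor alpha (Pdgfra) marks fibroblasts of many tissues, including the mammary fat pad, and PDGF receptor beta (Pdgfrb) marks fibroblasts and the pericytes that ensheath capillaries. Fibronectin (Fn1), periostin (Postn), decorin (Dcn) and lumican (Lum) are secreted matrix proteins, Fap is a serine protease on the surface of activated fibroblasts, Thy1 is a surface glycoprotein of fibroblasts that T cells of the mouse also carry, and S100a4 is a calcium-binding protein of fibroblasts, macrophages and motile tumor cells. None of them is made by fibroblasts alone, and in RNA from whole tumors fewer cells of a type and less RNA per cell cannot be told apart.

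Each array compared tumor RNA with a reference pool from mouse cell lines, and values are log2 ratios of tumor over reference with the tumor in Cy5, as the labels give it. The study's methods name Cy5 for the reference, which is the opposite direction. In the channel labelled as reference, the median SD over genes across the epithelial arrays was 0.26, against 0.63 in the channel labelled as tumor. A value compares a gene with its own level in the pool, so levels were compared between tumors and never between genes. Spindle cell tumors were all hybridised on 3 slides of their own, scanned in a session of their own, so histology and scanning session cannot be told apart. Epithelial tumors lay on 8 slides, 7 of which held 1 regimen only, so regimen and slide could hardly be told apart either. Tumors 42L4B and 60L, both early HFD, lay on a slide of their own. They were scanned in a separate session from the other 27 epithelial tumors. The array of tumor 60L had 22.02% outlier spots, against a median of 0.665% over all arrays, and of the 10 genes it gave a value for Pdgfra only. Values were also missing for Thy1 in 42L4B and for Fap in 90R. The mean of 7 epithelial markers lay between −0.31 and 2.11 among epithelial tumors and between −2.33 and 1.62 among spindle cell tumors. It was lowest in M129L (−2.33), where Cdh1 (−2.60), Epcam (−1.79), Krt8 (−1.21) and Krt18 (−1.13) were all below the reference pool, and in M63L (−0.91), where Epcam (−2.63) and Cdh1 (−2.47) were below it but Krt8 (2.48) and Krt18 (2.72) above it.

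Each gene was read by 1 probe, except that S100a4 had 2, which tracked each other (r = 0.986 over tumors, largest gap 0.66 on the log2 scale). All probes were well above background in both channels on 41 of 41 arrays and none was saturated. In the mm9 coordinates of the array, the probes lay on chromosome 2 at 13504232 to 13504291 for Vim and at 62339002 to 62339060 for Fap, on chromosome 1 at 71632116 to 71632175 for Fn1, on chromosome 5 at 75593888 to 75593947 for Pdgfra and on chromosome 9 at 43856591 to 43856650 for Thy1. The S100a4 and Postn probes lay on chromosome 3, at 90409734 to 90409793 and at 54194840 to 54194899. Dcn and Lum are neighbours on chromosome 10, where their probes lay at 96980233 to 96980292 and at 97035210 to 97035269. The position of the Pdgfrb probe is not reported here. No annotation of that build was used, so exons and untranslated regions are not named.

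Promoter sequence from RefSeq (GRCm38.p6) was used for 4 of the genes, Vim, S100a4, Postn and Pdgfra, with 5 starts between them. Pdgfrb was left out of the search beforehand, because its chromosome was skipped. The 250 bases before each start were searched for TATAAA, the core of the TATA box, which occurred in 3 of these 5 promoters. The 3 are shown because they hold TATAAA, and they belong to an intermediate filament gene, a calcium-binding protein gene and a matrix gene. The stretches of Pdgfra and of the first start of Postn lack it and are not shown. TATAAA is in capitals; it begins 32 bases before the start in Vim, 31 in S100a4 and 26 at the second start of Postn, all on the strand of the gene. Of 32851 promoters in the same table, 12.4% held these letters on either strand and 2.63% held them in the last 50 bases on the strand of the gene. For these shares no chromosome was skipped. The stretches are chr2:13574061-13574310, chr3:90603520-90603769 and chr3:54360857-54361106, all on the plus strand, in this order.
Vim: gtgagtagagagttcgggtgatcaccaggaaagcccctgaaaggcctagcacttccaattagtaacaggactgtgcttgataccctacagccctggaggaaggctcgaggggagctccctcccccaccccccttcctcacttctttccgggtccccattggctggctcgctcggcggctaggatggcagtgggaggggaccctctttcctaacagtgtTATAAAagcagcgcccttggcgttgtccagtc
S100a4: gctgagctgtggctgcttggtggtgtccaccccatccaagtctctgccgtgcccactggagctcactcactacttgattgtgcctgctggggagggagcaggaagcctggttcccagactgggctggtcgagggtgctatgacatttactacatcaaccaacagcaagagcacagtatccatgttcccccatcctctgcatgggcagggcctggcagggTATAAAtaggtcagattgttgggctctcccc
Postn: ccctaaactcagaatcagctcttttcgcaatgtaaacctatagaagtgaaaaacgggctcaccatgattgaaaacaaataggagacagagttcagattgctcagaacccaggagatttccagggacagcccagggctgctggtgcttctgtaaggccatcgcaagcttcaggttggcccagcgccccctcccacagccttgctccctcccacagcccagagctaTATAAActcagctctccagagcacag

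The first comparison asked how spindle cell carcinomas differed from epithelial tumors. Vim and Pdgfrb were higher in spindle cell tumors, Vim by 1.19 on the log2 scale, or 2.28-fold, and Pdgfrb by 0.92, or 1.89-fold. The other 8 genes also had a higher mean in spindle cell tumors, by 0.093 for Fap to 0.84 for Pdgfra, but none of these differences passed the threshold. The median difference over the 10 genes was 0.77, against −0.07 over all genes tested. By limma with Benjamini-Hochberg adjustment at 0.05, 4218 of 20913 genes were called (20.2%), 1657 of them higher in spindle cell tumors (7.92%) and 2561 lower (12.2%), so 2 calls among 10 genes stand beside a similar share of all genes called in either direction.

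Among the cytoskeletal and surface markers, Vim ranged from −2.86 to −0.088 in the 28 epithelial tumors with a value, with a median of −1.71 (mean −1.61 ± 0.66, SD). In the 12 spindle cell tumors it ran from −2.94 in M128L to 1.59 in M63L, with a median of −0.47 (mean −0.42 ± 1.31). The highest values, in M63L, M118R, M76R and M129L, exceeded every epithelial tumor, whereas M128L lay below all of them. The difference of 1.19 had an SE of 0.30, a 95% confidence interval of 0.58 to 1.80 and a limma adjusted p of 0.00482. These values rest on a single variance for both histologies, although the SD of Vim was 0.66 in epithelial and 1.31 in spindle cell tumors. S100a4 spread further than Vim within spindle cell tumors, from −1.40 in M18L to 5.50 in M63L (mean 1.61 ± 2.07, n = 12), against −1.17 to 3.77 in epithelial tumors (mean 0.82 ± 1.15, n = 28). The tumors M63L, M129L and M118R, with 5.50, 4.19 and 3.82, stood above every epithelial tumor, and the difference between the histologies was 0.79 (limma adjusted p = 0.26). Thy1 had a mean of 0.34 ± 0.53 (n = 27) in epithelial and 0.85 ± 0.63 (n = 12) in spindle cell tumors, a difference of 0.51 with an SE of 0.19 that missed the threshold (limma adjusted p = 0.0559). Only M32L (1.61) and M76R (1.74) exceeded the highest epithelial Thy1 value of 1.47.

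Of the PDGF receptors, Pdgfrb ranged from −1.21 to 1.12 in epithelial tumors (median −0.039, mean −0.13 ± 0.64, n = 28). In spindle cell tumors it ranged from −0.45 in M63L to 1.95 in M84R (median 0.66, mean 0.79 ± 0.78, n = 12). M84R, M33R, M32L and M129L lay above every epithelial tumor, and none lay below the lowest. The difference of 0.92 had an SE of 0.23, a 95% confidence interval of 0.45 to 1.39 and a limma adjusted p of 0.00437. Pdgfra had a larger spread in both groups, from −4.14 to 0.84 in epithelial tumors (mean −1.71 ± 1.24, n = 29) and from −3.28 to 0.99 in spindle cell tumors (mean −0.87 ± 1.42, n = 12). M129L alone exceeded the highest epithelial Pdgfra value, and the difference of 0.84 did not pass (limma adjusted p = 0.166). The reference channel itself was 0.56 higher on the spindle cell arrays for the Pdgfra probe and 0.22 and 0.24 lower for the Vim and Pdgfrb probes, while the tumor channel was higher for all 3, by 1.39, 0.98 and 0.70. None of the 4 PDGF ligands passed the test: the difference was 0.60 for Pdgfd (limma adjusted p = 0.302) and −0.24 for Pdgfa (0.647).

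Fap had nearly equal means, −1.66 ± 0.32 (n = 27) in epithelial and −1.57 ± 1.12 (n = 12) in spindle cell tumors, a difference of 0.093 (limma adjusted p = 0.809), but very different spreads. Its 27 epithelial values lay between −2.12 and −0.85, and only 10.9% of all genes had a smaller SD over the epithelial tumors. Of the 12 spindle cell values, 5 lay below that range, down to −2.71 in M129L, and 2 lay above it, 0.014 in M32L and 1.02 in M76R.

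The matrix proteins did not pass the test. Fn1 averaged −0.45 ± 1.24 (n = 28) in epithelial and 0.12 ± 1.22 (n = 12) in spindle cell tumors (limma adjusted p = 0.336), and Postn averaged −1.66 ± 0.76 and −1.28 ± 1.21 (0.405). The small proteoglycans Dcn and Lum had a wide spread in spindle cell tumors. Dcn ran from −4.84 in M18L to 1.15 in M76R, against −4.57 to −0.54 in epithelial tumors, and the difference was 0.74 (limma adjusted p = 0.303). Lum ran from −5.04 in M129L to 1.25 in M76R, against −5.05 to −1.1 in epithelial tumors, and the difference was 0.81 (limma adjusted p = 0.158). M76R and M32L had the highest value of both genes in the series.

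**Figure D1:**
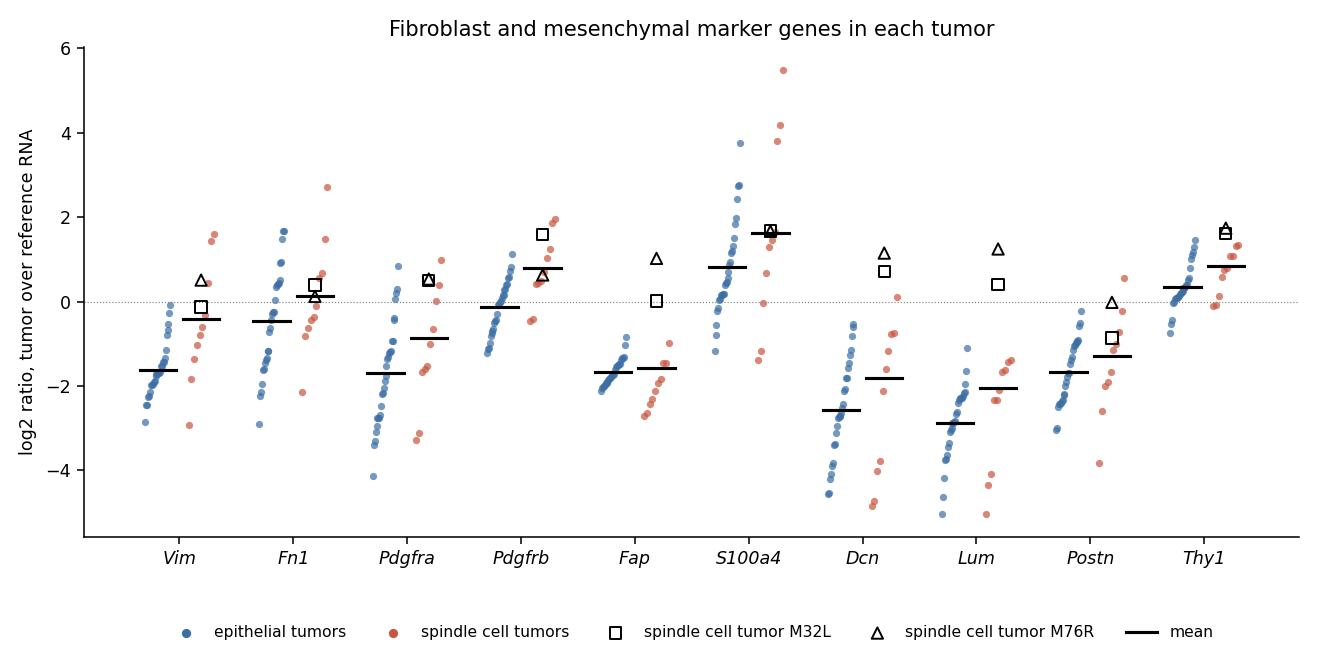
Log2 ratio of tumor over reference (vertical axis) for each of the 10 genes, 1 point per tumor ordered by value within a group, epithelial tumors in blue and spindle cell tumors in red, with bars at the group means and M32L and M76R drawn as a square and a triangle. The SD is larger in spindle cell than in epithelial tumors for every gene but Fn1, for example 1.31 against 0.66 for Vim and 1.12 against 0.32 for Fap. For Vim and for Pdgfrb, 4 of 12 spindle cell tumors lie above all epithelial tumors.

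Spindle cell tumors did not behave alike. Counting the genes whose value exceeded the epithelial median, M32L, M33R, M76R and M84R were above it for 10 of 10 genes, M128L for 0 of 10 and M18L for 2 of 10. Epithelial tumors covered the same span, from 10 of 10 in MSU_117L, 40R4A, 62L and 92R to 0 of 10 in MSU_107R and 13L. Tumors whose labels share a number could differ: MSU_117L, with 10 of 10, and MSU_117R, with 1 of 10, were both early HFD-LFD tumors, with Pdgfra at 0.055 and −3.10 and Vim at −0.27 and −2.46.

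**Figure D2:**
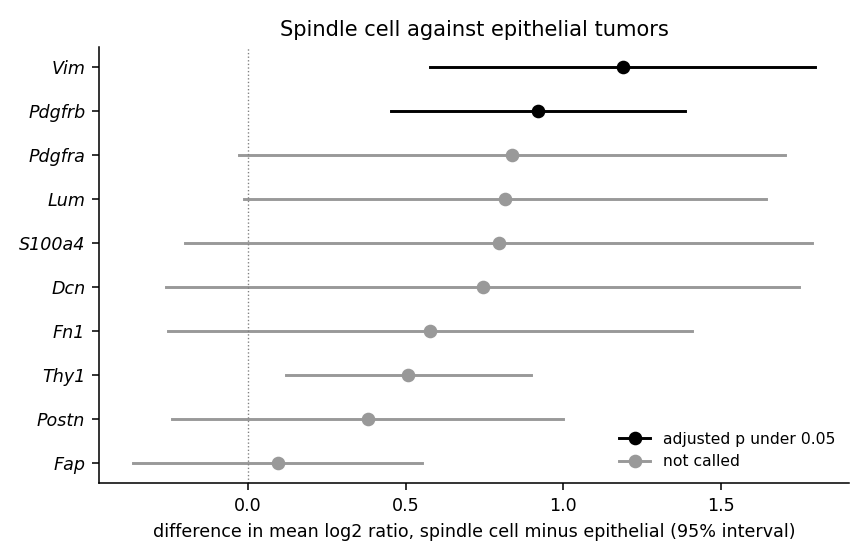
Difference between spindle cell and epithelial tumors in log2 ratio for each of the 10 genes, with 95% confidence intervals from limma. With all tumors the 10 estimates lie above 0, from 0.093 for Fap to 1.19 for Vim (Fap is at −0.32 without M32L and M76R, and Dcn and S100a4 are negative in the authors' matrix), and the 2 genes called at an adjusted p of 0.05 are Vim and Pdgfrb.

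Genes that act with these markers were taken from fixed lists. Of the small leucine-rich proteoglycans related to Dcn and Lum, 2 of 6 rose in spindle cell tumors and none fell: biglycan (Bgn) rose by 1.82 (SE 0.29, limma adjusted p = 0.0000164) and asporin (Aspn) by 0.90 (0.0246). Of 13 genes that bind or cooperate with fibronectin and periostin, 5 rose and none fell, with a median of 0.66. They were Itga5, the alpha chain of the main fibronectin receptor, by 1.71 (SE 0.28, limma adjusted p = 0.0000323), Sparc by 1.12 (0.00328), Thbs2 by 1.08 (0.0148), Tgfbi by 0.91 (0.0477) and Fbn1, which encodes fibrillin of the elastic microfibrils, by 0.71 (0.0347). Of 14 other fibroblast genes only the transcription factor Twist2 rose, by 1.72 (SE 0.37, limma adjusted p = 0.001), and of 11 further S100 and intermediate filament genes Lmna rose by 0.66 (0.0214) and S100a11 by 0.59 (0.0327). These shares stand beside 7.92% of all genes called higher.

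Some markers of other cells were also called, beside 7.92% of all genes called higher in spindle cell tumors and 12.2% called lower. Of 6 endothelial markers, 3 rose in spindle cell tumors, Pecam1 by 0.87 (limma adjusted p = 0.00183), Eng by 0.80 (0.00111) and Kdr by 0.56 (0.0027), and the mean over the 6 lay between −1.96 and 0.92 among epithelial and between −1.01 and 0.999 among spindle cell tumors. None of the 6 macrophage markers passed, with Mrc1 at 0.99 (limma adjusted p = 0.0755) and Lyz2 at 0.62 (0.099), and their mean ranged from −0.53 to 2.04 and from −0.043 to 2.15. Among T cell markers 1 of 6 fell, Cd8a by −1.39 (limma adjusted p = 0.0344), and their mean ranged from −1.55 to 2.61 and from −1.82 to 1.04. None of the 7 epithelial markers passed, although all 7 differences were negative, with Krt19 at −1.06 (limma adjusted p = 0.13) and Epcam at −0.77 (0.245). None of the 6 smooth muscle and pericyte markers passed, with Cnn1 at −0.99 (0.111) and Myh11 at −0.36 (0.581), and of 5 skeletal muscle markers Mylpf fell by −0.58 (0.00954), with means over the 5 genes between −5.39 and −3.41 in spindle cell tumors. The part of these cells in the differences of the 10 genes was not tested.

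Adipocyte markers divided the spindle cell tumors. The mean of 5 markers (Adipoq, Plin1, Fabp4, Cidec and Retn) was 3.45 in M76R and 1.80 in M32L but lay between −5.42 and −3.59 in the other 10, and it ranged from −5.35 to −0.26 in 28 epithelial tumors. M76R and M32L, which are also the tumors with the highest Fap, Dcn, Lum and Thy1, had the highest endothelial means among spindle cell tumors, 0.999 and 0.97 (the latter from 5 of 6 markers). M33R and M84R, with 10 of 10 genes above the epithelial median, had adipocyte means of −3.64 and −4.37. Without M32L and M76R, a comparison added after the data had been seen, Vim and Pdgfrb were still called, with differences of 1.07 (limma adjusted p = 0.0159) and 0.86 (0.0115), while the difference of Lum went from 0.81 to 0.24, that of Dcn from 0.74 to 0.19 and that of Thy1 from 0.51 to 0.34. The difference of Fap changed sign, from 0.093 to −0.32 (SE 0.15, limma adjusted p = 0.11), and was also negative without M32L alone (−0.051) and without M76R alone (−0.14).

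**Figure D3:**
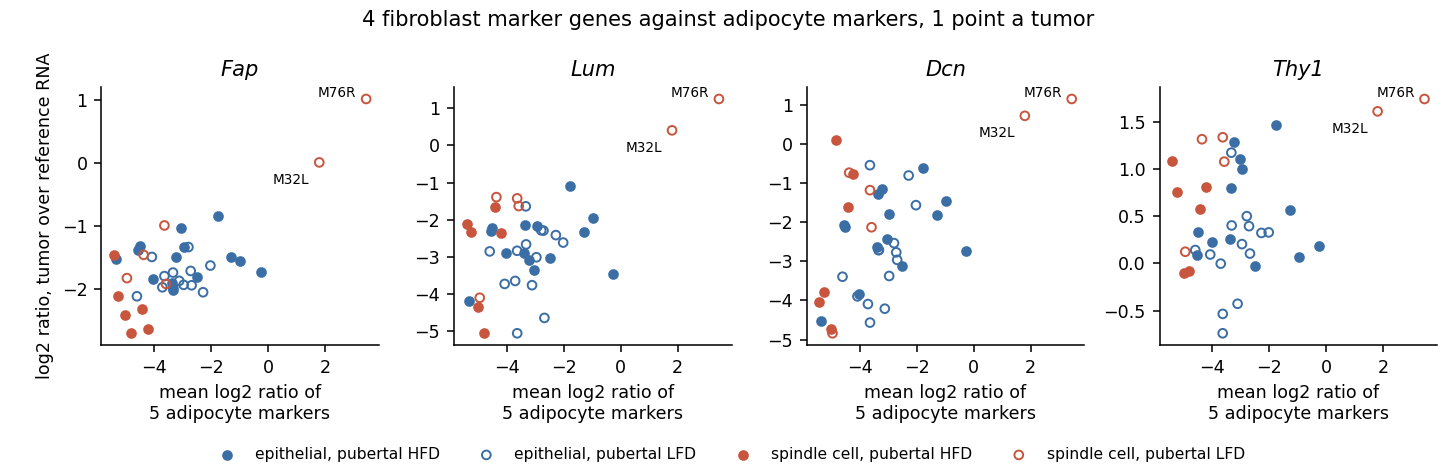
Mean log2 ratio of 5 adipocyte markers (horizontal axis) against the log2 ratio of Fap, Lum, Dcn and Thy1 (vertical axes), 1 point per tumor, epithelial in blue and spindle cell in red, filled for pubertal HFD and open for pubertal LFD. M76R and M32L, at 3.45 and 1.80, lie to the right of all other tumors and hold the highest values of all 4 genes.

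Among late tumors only, Pdgfrb was called with a difference of 0.99 (limma adjusted p = 0.03), while Vim had nearly the same difference as before, 1.15, and missed the threshold (0.0686). In the authors' own matrix, which gives a value for 7 of 12 spindle cell tumors for Dcn and for 6 of 12 for S100a4, the differences of these genes were −0.44 and −0.32, so their sign was not stable. Vim and Pdgfrb were called in that matrix, Vim from 6 of 12 spindle cell tumors and Pdgfrb from all 12. Thy1 had a value there in 3 of 12. With normexp background correction and each array centred on its median, in place of the software's processed signals, the median over all genes moved from −0.07 to 0.18, 3393 of 3673 called genes were higher in spindle cell tumors, and Dcn (1.36), Lum (1.23) and Thy1 (0.99) were called beside Vim and Pdgfrb. With the same background correction followed by loess, the median was −0.044 and the 2 calls were Vim and Pdgfrb.

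The next comparison asked whether the difference between hosts fed HFD and LFD during puberty was the same in both histologies. Fap was the only one of the 10 genes called, by limma's interaction term at 0.10 after Benjamini-Hochberg adjustment, where 93 of 20911 genes were called (0.445%). In spindle cell tumors Fap had a lower mean after pubertal HFD, −2.28 ± 0.45 against −0.86 ± 1.16 (SD, n = 6 each). M54R, M56LA and M63L on HFD had −1.47, −2.12 and −2.64, and M118R, M128L and M129L on HFD-LFD had −2.32, −2.42 and −2.71. M18L, M32L and M33R on LFD had −1.83, 0.014 and −0.99, and M76R, M84R and M86R on LFD-HFD had 1.02, −1.46 and −1.92. The groups overlapped through M54R, M18L and M86R. In epithelial tumors the order was the other way, −1.52 ± 0.33 (n = 14) after pubertal HFD and −1.81 ± 0.23 (n = 13) after pubertal LFD. The interaction, the spindle cell minus the epithelial difference, was −1.71 (SE 0.36, 95% confidence interval −2.45 to −0.97, limma adjusted p = 0.0441). The SE rests on a single variance fitted over all tumors, to which the epithelial values with their smaller SD contributed. The wider spread of the spindle cell groups was not allowed for separately in this call.

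This call depended on the tumors with high adipocyte markers, both of which belonged to the pubertal LFD group. Without M32L the interaction of Fap was −1.54 (limma adjusted p = 0.123), without M76R −1.34 (0.12) and without both −1.02 (0.34), and with outlier spots kept in all tumors it was −1.56 (0.173). Of 6 listed adipocyte markers, the 5 measured had interaction estimates from −3.62 for Cidec to −3.14 for Retn, none of them called. The part of adipose tissue in the Fap result was not tested beyond leaving out M32L and M76R. Lum had a larger interaction estimate, −2.27 (SE 0.76, limma adjusted p = 0.222), and Thy1 had −1.12 (SE 0.35, adjusted p = 0.19), and neither was called. In spindle cell tumors Lum averaged −2.97 ± 1.37 after pubertal HFD and −1.15 ± 1.85 after pubertal LFD (n = 6 each), and Thy1 averaged 0.50 ± 0.49 and 1.20 ± 0.58. Among related genes, 3 of 14 other fibroblast genes were called, all with negative interaction: Pi16 at −3.14 (limma adjusted p = 0.0531), Dpt, dermatopontin of the skin and fascial matrix, at −2.62 (0.0448) and Serpinf1 at −2.46 (0.0203). Aspn (−1.99), Fbln1 (−1.91) and the pericyte proteoglycan Cspg4 (−1.58) were called in the same direction, and Nes, the intermediate filament nestin, in the opposite direction (2.42, limma adjusted p = 0.0441). Without M32L and M76R, 0 of all genes were called by limma, with 1427 at an unadjusted p under 0.05.

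The study also compared tumors that occurred early with those that occurred late. In epithelial tumors none of the 10 genes passed limma at 0.10, where 30 of 20913 genes were called (0.143%) and 2753 had an unadjusted p under 0.05. Fn1 came closest, with values from −2.90 to 1.67 in early tumors (median 0.40, mean 0.036 ± 1.25, n = 13) and from −2.23 to 1.49 in late tumors (median −1.33, mean −0.88 ± 1.1, n = 15). The groups overlapped over almost their whole range, and the difference of 0.91 (SE 0.42, 95% confidence interval 0.051 to 1.78) had an unadjusted p of 0.0387 and a limma adjusted p of 0.349. Pdgfrb had an estimate of 0.46 (limma adjusted p = 0.381) and Dcn of −0.75 (0.425), and the other 7 genes had estimates from −0.52 for Pdgfra to −0.0039 for Thy1. Within the 3 slides that held both onsets (12 tumors), the estimates were 1.57 for Fn1, −1.47 for Dcn and 0.062 for Pdgfrb, none called. In the authors' matrix Fn1 had an estimate of 0.12. SAM, the permutation statistic of the study's methods, called 630 genes and 0 of the 10. Without 42L4B and 60L, limma called 2 genes and 0 of the 10. Among the related lists only Omd, osteomodulin of the family of Dcn, was called, lower in early tumors by −1.91 (SE 0.44, limma adjusted p = 0.0944).

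In spindle cell tumors 3 early and 9 late tumors were compared, and limma called 0 of 20910 genes (0%), with 425 at an unadjusted p under 0.05 and none of the 10 genes among them. The early tumors M84R, M86R and M129L had Pdgfra at 0.39, −1.02 and 0.99, and the late ones ranged from −3.28 to 0.53, an estimate of 1.32 (SE 0.81, limma adjusted p = 1). Whether the onset difference depended on histology was tested by interaction, which called 1 of 20910 genes (0.00478%) and none of the 10. Whether the pubertal diet difference depended on onset in epithelial tumors was tested likewise, and 0 of 20913 genes were called (0%, 1441 at an unadjusted p under 0.05). Fn1 had the lowest p there among the 10 genes: it averaged 0.47 ± 1.08 (n = 7) in early and −1.40 ± 0.81 (n = 7) in late pubertal LFD tumors, but −0.47 ± 1.32 (n = 6) and −0.43 ± 1.17 (n = 8) in early and late pubertal HFD tumors. The interaction was −1.92 (SE 0.80, limma adjusted p = 0.72).

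Across the 4 regimens, limma's F-test in epithelial tumors called 99 of 20913 genes (0.473%) and none of the 10. The lowest p belonged to Thy1 (unadjusted p = 0.00308, limma adjusted p = 0.187), followed by Pdgfrb (0.012 and 0.271) and Fap (0.0249 and 0.326). Thy1 ranged from 0.23 to 1.47 in HFD tumors (median 1.05, mean 0.98 ± 0.43, n = 6), from −0.53 to 0.40 in LFD tumors (median 0.17, mean 0.13 ± 0.30, n = 8), from −0.030 to 0.56 in HFD-LFD tumors (median 0.18, mean 0.21 ± 0.20, n = 7) and from −0.74 to 1.17 in LFD-HFD tumors (median 0.21, mean 0.15 ± 0.68, n = 6). Mean Thy1 was highest in lifelong HFD tumors, and the other 3 regimens lay within 1 SD of one another. Pdgfrb had the same highest regimen, with means of 0.44 ± 0.37 (n = 7) on HFD, −0.18 ± 0.53 (n = 8) on LFD, −0.19 ± 0.84 (n = 6) on LFD-HFD and −0.58 ± 0.39 (n = 7) on HFD-LFD. Fap averaged −1.44 ± 0.42 (n = 7) on HFD, −1.60 ± 0.22 (n = 7) on HFD-LFD, −1.61 ± 0.21 (n = 5) on LFD-HFD and −1.94 ± 0.13 (n = 8) on LFD, where its 8 values lay between −2.12 and −1.71. Vim averaged −1.30 ± 0.71 (n = 7) on HFD, −1.31 ± 0.58 (n = 6) on LFD-HFD, −1.65 ± 0.71 (n = 7) on HFD-LFD and −2.08 ± 0.43 (n = 8) on LFD (limma adjusted p = 0.408).

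**Figure D4:**
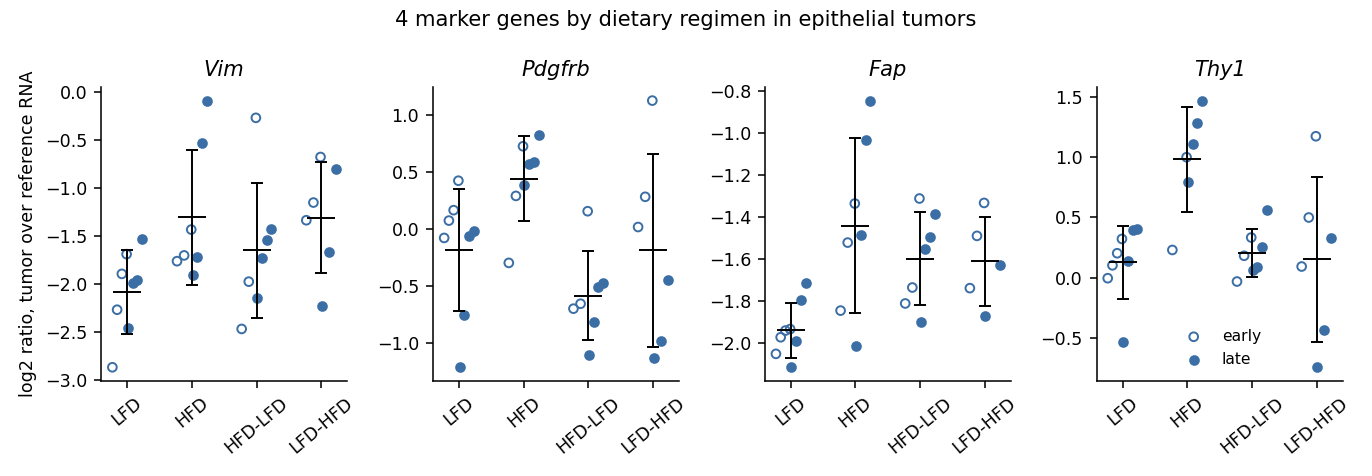
Log2 ratio of Vim, Pdgfrb, Fap and Thy1 (vertical axes, each with its own scale) in epithelial tumors by regimen, 1 point per tumor, open for early and filled for late, with the mean and SD of each regimen. Mean Thy1 is 0.98 on lifelong HFD and between 0.13 and 0.21 on the other regimens, with overlapping values.

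None of the 10 genes passed in any of the 6 pairwise contrasts of regimens in epithelial tumors at 0.10. HFD minus LFD called 0% of genes (1971 at an unadjusted p under 0.05), and the estimates were 0.85 for Thy1 (SE 0.23, limma adjusted p = 0.391), 0.50 for Fap (0.412), 0.77 for Vim (0.446) and 0.62 for Pdgfrb (0.497). HFD-LFD minus LFD called 1.25% of genes, with Fap at 0.34 (limma adjusted p = 0.327). HFD-LFD minus HFD called 0.0287%, with Pdgfrb at −1.02 (SE 0.29, limma adjusted p = 0.161) and Thy1 at −0.77 (0.208). LFD-HFD minus HFD called 0.263%, with Thy1 at −0.83 (limma adjusted p = 0.236). LFD-HFD minus LFD (1371 genes at an unadjusted p under 0.05) and LFD-HFD minus HFD-LFD (1060) each called 0%. In spindle cell tumors, with 3 tumors per regimen, the F-test called 0 of 20908 genes (0%, 782 at an unadjusted p under 0.05), and Thy1 was the only one of the 10 genes with an unadjusted p under 0.05 (0.048, limma adjusted p = 0.977).

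Pooling all tumors by the diet fed in puberty, 2 of 20913 genes were called (0.00956%) and none of the 10. Postn had the lowest p: it averaged −1.92 ± 0.78 (n = 20) after pubertal HFD and −1.18 ± 0.91 (n = 20) after pubertal LFD, a difference of −0.75 (SE 0.26, 95% confidence interval −1.28 to −0.22) with an unadjusted p of 0.00668 and a limma adjusted p of 0.603. By the diet fed in adulthood, 0 of 20913 genes were called (0%, 954 at an unadjusted p under 0.05, and 0 by SAM). All 10 genes had a higher mean in tumors of hosts on HFD in adulthood, from 0.11 for S100a4 to 0.63 for Pdgfra with a median of 0.43, against a median near 0 (−0.0047) over all genes, while 3 of the 10 were positive with slide as a fixed block and Dcn was −0.27 in the authors' matrix. Thy1 had the lowest p, with 0.75 ± 0.65 (n = 18) on adult HFD and 0.28 ± 0.47 (n = 21) on adult LFD (limma adjusted p = 0.932). The other fibroblast gene lists gave no calls in either comparison.

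Pairs of the 10 genes were compared over tumors. Over the epithelial tumors, 43 of their 45 pairs had a positive Pearson's r, with a median of 0.41 and a range from −0.145 to 0.744, and 14 pairs passed a permutation test (100000 resamples, two-sided, Benjamini-Hochberg over 45 pairs, at 0.05). The lowest r of a passing pair was 0.48, and 3.11% of 167289486 pairs among 18292 genes measured in 28 epithelial tumors had an r at least as high (median r 0.0043, 50.6% positive). Fn1 was the least like the rest, with r = 0.28 against the mean of the other 9 genes and negative r with Dcn (−0.145) and S100a4 (−0.12). All genes of a tumor share its array and slide. Pdgfrb and Thy1 were the closest pair (r = 0.74, permutation p = 1e-05, adjusted 0.00045, the smallest p that the resamples can give, Spearman's rho = 0.68 with permutation p = 0.00012, n = 27). Pdgfra and Dcn had r = 0.70 (permutation p = 6e-05, adjusted 0.0009, rho = 0.69 with p = 8e-05), Dcn and Lum 0.69 (4e-05, adjusted 0.0009, rho = 0.68 with p = 9e-05) and Pdgfra and Lum 0.65 (0.00017, adjusted 0.00191, rho = 0.61 with p = 0.00078), each over 28 tumors. Without the 2 tumors farthest from the median of the first gene, these 4 pairs had r of 0.67, 0.59, 0.69 and 0.63, and the 14 pairs had r from 0.29 to 0.72. The lowest of these was that of Fap and Thy1, which went from 0.55 to 0.29 and so rested in large part on those tumors.

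After each slide had been centred on its mean, an alternative added after the data had been seen, 5 of the 14 pairs passed with permutations within slides. They were Pdgfra with Dcn (r = 0.69, permutation p = 0.00047, adjusted 0.0133), S100a4 with Dcn (0.53, p = 0.00059, adjusted 0.0133), Lum with Postn (0.66, p = 0.00146, adjusted 0.0197), Pdgfra with Lum (0.59, p = 0.00203, adjusted 0.0197) and Dcn with Lum (0.62, p = 0.00219, adjusted 0.0197). Pdgfrb with Thy1 had r = 0.57 within slides (permutation p = 0.0159, adjusted 0.102). In the 12 spindle cell tumors, as a description, the median r was 0.46, with 0.95 for Lum and Thy1, and without M32L and M76R it was 0.40.

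**Figure D5:**
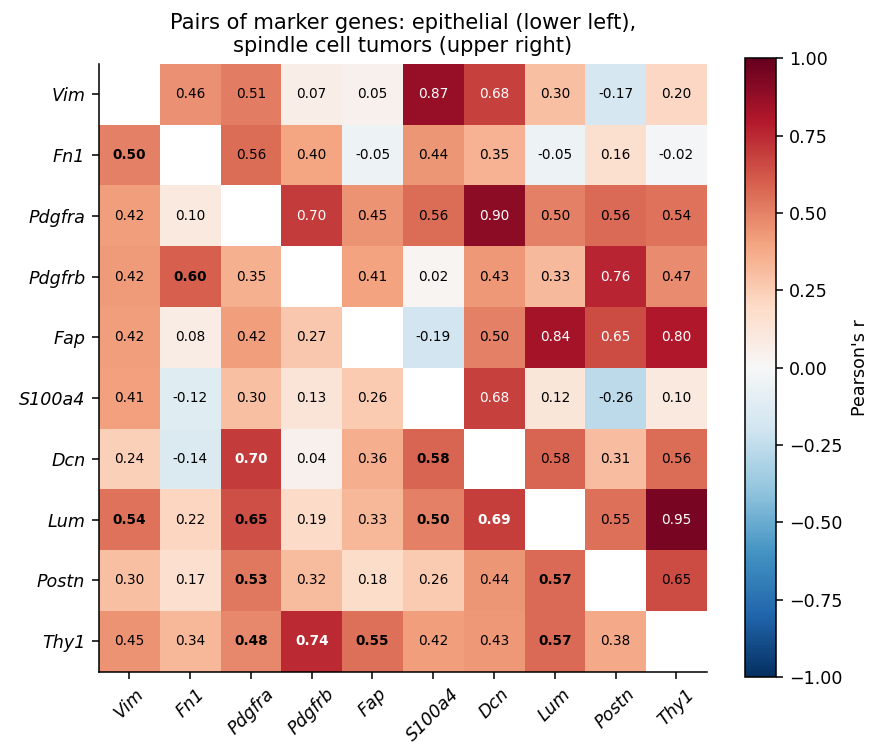
Pearson's r between each pair of the 10 genes over epithelial tumors (lower left, bold where the pair passed the permutation test) and over spindle cell tumors (upper right, not tested), on a colour scale of r. In epithelial tumors the 3 pairs of Pdgfra, Dcn and Lum have r from 0.65 to 0.70, and Pdgfrb pairs best with Thy1 (0.74).

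The genes most like the group were found by Pearson's r with the mean of the 10 genes, each scaled to mean 0 and SD 1. Over all 29 epithelial tumors they were Pcolce (0.84), Col6a1 (0.79), Pde8a, Zeb1 and Maf, of which Pcolce enhances the processing of procollagen and Col6a1 encodes a chain of collagen VI. Tumor 60L entered that mean through Pdgfra alone, and over the 28 tumors with at least 5 of the genes they were Sfrp2 (0.87), Nid1 (0.85), Pcolce (0.83), Sparc (0.80) and Serpinf1 (0.79). Over the 12 spindle cell tumors they were Slit3 (0.95), Colec12, Hoxd3, Rasa3 and Herc4. Only genes with a RefSeq symbol and a value in every tumor compared were searched. These were 8765 genes over all 29 epithelial tumors, 13290 over the 28 and 15021 over the 12 spindle cell tumors. The epithelial lists with and without 60L thus also differ in the genes searched.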

How the data were processed

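RNA of 41 tumors was hybridised against Universal Mouse Reference RNA on Agilent 4x44K arrays. The deposited scanner files give, per the file headers, processed intensity of each spot in both channels, already background-subtracted and dye-normalized by Agilent Feature Extraction 11.0.1.1 (epithelial tumors) or 10.5.1.1 (spindle cell tumors); the submitters' processing notes name 8.5.1.1. The authors also deposited a matrix of log2 ratios, Lowess-normalized per the study's methods, used as an alternative. Its columns 40R4A, 57R and 65R each matched the scanner file of another of these tumors (r from 0.965 to 0.968, against 0.759 to 0.837 for the same label), so the scanner files were used; the matrix labels would exchange the onset of 57R and 65R and were run as an alternative.

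Log2 ratios of Cy5 over Cy3 processed signals were taken, outlier spots left missing, spots of a probe averaged, and genes kept with a signal above 10 in each channel on 80% of arrays or more, each by its brightest probe. Groups come from the labels. Comparisons were fitted with limma 3.58.1 (R 4.3.3) with Benjamini-Hochberg adjustment over all genes, at 0.05 for histology and 0.10 otherwise. Each gene had a single variance for all groups in a fit, so unequal spreads were not allowed for. The study used SAM, run here as an alternative with 100 permutations. Correlations and their permutations used numpy 2.4.6, with ranks and the Benjamini-Hochberg adjustment from scipy 1.17.1. Code was tested on simulated data. Labels name no separate mice; tumors sharing a number (3 numbers, 2 tumors each) may share an animal, so p-values measure the spread between these tumors.

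Named genes were the 10 genes, from each other list up to 3 called genes with the largest difference (or up to 2 as values), cell type markers beside results, Trp53 and the 5 genes most like the group; Fbn1 and Tgfbi are named beyond that rule, after their values were seen. The genes and lists were chosen with earlier results of these data known. The number of arrays limits precision.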

Additional observations from a re-analysis of the deposited data

Results flagged for a closer look

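Within the 8 epithelial LFD tumors, Thy1 in tumor 13L was −0.53, below the other 7, which lay between −0.0024 and 0.40. The gap took up 0.5682 of the range of the group. Of 40 groups of 4 to 10 tumors examined, this was the only one with such a tumor, and about 1 in 20 would be found by chance. The interaction of pubertal diet and histology for Fap, −1.71, marks a difference between histologies that was tested directly (limma adjusted p = 0.0441). Its values by tumor and without M32L and M76R, the tumors with high adipocyte markers, are given above.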

How the results depend on the processing

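Between spindle cell and epithelial tumors 2 genes were called, against 5 with normexp and median centring (Vim, Pdgfrb, Dcn, Lum and Thy1), 5 by SAM (Vim, Pdgfra, Pdgfrb, Lum and Thy1), 1 in late tumors only, and 2 to 4 with each spindle cell tumor left out, 4 (with Lum and Thy1) without M129L. Without 42L4B and 60L, the epithelial tumors scanned in a separate session, 3 were called (Vim, Pdgfrb and Thy1). For the interaction of pubertal diet and histology 1 gene was called, against 3 with normexp and loess (Fap, Lum and Thy1), 0 with outlier spots kept (3 genes at an unadjusted p under 0.05), 0 without M32L, M86R and M76R, 0 without M32L and M76R, and 0 to 3 with each spindle cell tumor left out, 0 without M32L or M76R and 3 without M18L. Correlated pairs numbered 14, against 5 within slides. In no other comparison was any of the 10 genes called under any alternative run. Over all genes, the counts that moved by more than 1.5 times included these: histology 4218, 2348 in late tumors, 2550 with slide as a random block and 7892 without the filter; onset in epithelial tumors 30, from 0 with slide as a random block to 630 by SAM; regimens in epithelial tumors 99, from 0 with slide as a random block to 200 in the authors' matrix; pubertal HFD 2, from 0 in the authors' matrix to 22 without M32L, M86R and M76R; adult HFD 0, but 9 with slide as a fixed block; regimens in spindle cell tumors 0, but 12 without M84R; onset by histology 1, up to 4 without M86R; pubertal HFD by onset 0, but 2 in the authors' matrix; and the interaction of pubertal diet and histology 93, 494 without M18L and otherwise from 0 without M32L and M76R to 2364 with normexp and loess. The causes were not tested. For single genes, no called difference turned its sign, but the uncalled histology difference of Fap was negative in 4 of 28 settings, all without M32L, M76R or both. Leaving out spindle cell tumors in turn for the interactions and for histology, the late tumors for the interaction, M32L with M76R, and slide centring were chosen after seeing the data. No paired analysis was possible because compared groups share fewer than 2 label numbers. Limits are the 3 tumors per regimen in spindle cell tumors, slides that hold 1 regimen, and a scanning session that holds 1 histology.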
